A study of Mus musculus with 2 samples.

Results

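The lung with a high metastatic burden held 132 macrophages with transcripts of both complement C1q and arginase 1 (Arg1), among 822 cells of the same C1q gate, 3033 kept cells of that lung and 5506 kept cells of both lungs. The cells were selected on their own counts of unique molecular identifiers (UMIs, each 1 captured transcript). Cells entered with 1000 to 7000 genes seen and no more than 10% mitochondrial UMIs. The C1qa, C1qb and C1qc UMIs of a cell had to sum to at least 15 per 10000 UMIs, its UMIs of the 5 carcinoma genes Cdkn2a, Sox9, Twist1, Hmga2 and Fosl1 to under 6 per 10000, and it had to hold at least 1 Arg1 UMI. The 690 cells of the gate without an Arg1 UMI served as the comparison. C1q, the 5 carcinoma genes and Arg1 are therefore given below as descriptions and not as findings.

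Female FVB/NJ mice, 10 weeks of age, received Met-1 cells, a line of mouse mammary carcinoma, by the tail vein. Their whole lungs were later dissociated, without a sort, for single-cell sequencing on the 10x Genomics platform. The low-burden lung was taken at 1 week and the high-burden lung at 3 weeks, from 1 mouse each, so that week, burden, mouse and library cannot be told apart, and seeding by vein leaves out a primary tumor. In total 52723173 UMIs were counted over 3121 cells at high burden and 14041471 over 2668 cells at low burden, and 11 cell barcodes occurred in both.

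Arg1 splits L-arginine into ornithine and urea, and so competes for arginine with nitric oxide synthase. Macrophages that take part in tissue repair or surround tumors often carry it. C1q starts the classical complement cascade and is made largely by tissue macrophages, where it is also known for the clearance of dying cells.

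With 1 library per burden, cells are not replicates, and no test was made. Ratios below compare summed UMIs of 2 sets of cells, after 5000 UMIs had been drawn from every cell so that all cells had equal depth. Levels are counts of these draws scaled to a total of 1e+06 (CPM), ratios are log2 values of the first set over the second, and a gene is called higher or lower where the ratio is past 1.5-fold. Intervals are exact, at 95%, and cover counting error only. Where a count is 0, the limit given is that of 3 counts, and it limits cells with a UMI, not cells that express the gene.

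Few cells lay near the C1q limit. The lowest C1q sum inside was 16.6 per 10000 UMIs, or 18.6 among the members, and the highest outside was 12.005. Between 10 and 15 lay 8 cells, 1 of them with Arg1. On the carcinoma side, the highest sum inside was 5.93 and the lowest outside was 6.75. That limit removed 24 of 846 cells with enough C1q, and 8 of those 24 held an Arg1 UMI. Members had a median C1q sum of 97.5 per 10000, against 122 in the cells without Arg1.

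Both sides of the Arg1 split carried macrophage transcripts. All 13 macrophage identity genes listed in the files were detected in the members, with a summed level of 29659 CPM against 23231 without Arg1. Of the 13, 1 was higher and 2 were lower, with a median log2 ratio of −0.08, against 9.35% and 10.9% over all genes. Lyz2, the lysozyme of myeloid cells, was seen in 100% of members, Tyrobp in 100%, Cd14 in 93.9% and Csf1r, the receptor for macrophage colony-stimulating factor, in 99 of 132. The ratio of Lyz2 was 0.76, while those of Csf1r (−0.44) and Fcgr1 (−0.75) went the other way. Of 10 lymphocyte genes, 8 had a UMI in the members and 2, Cd8a and Cd79b, had none. Their summed level was 66.7 CPM in the members and 62.3 without Arg1. The median member had 11364.5 UMIs, 2850.5 genes and a mitochondrial share of 2.70%, against 10379 UMIs, 2736.5 genes and 2.92% without Arg1.

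The Arg1 gene lies on chromosome 10 (chr10:24915221-24927484, minus strand, GRCm38, the assembly of mm10). It gave 982 UMIs in all kept high-burden cells, of which 810 (82.5%) lay in the C1q gate. The share of gate cells with an Arg1 UMI was 16.1% (13.6 to 18.8). Members held between 1 and 43 Arg1 UMIs, with a median of 3. A single UMI was seen in 40 members and 2 UMIs in 14, while 27 held 3 to 5, 28 held 6 to 10 and 23 held more than 10. Those 23 cells carried 433 Arg1 UMIs, 53.5% of the total, so that a minority of the members held most of the transcripts. Scaled to depth, the members ranged from 0.513 to 44.2 Arg1 UMIs per 10000, with a median of 2.95.

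Arg1 UMIs were also found in carcinoma cells. Whether these UMIs are free RNA or transcripts of the cells was not tested. Among 1441 carcinoma cells with C1q below the limit, 73 (5.07%, 3.99 to 6.33) held an Arg1 UMI, and 71 of them held 1. These cells were deeper, with a median of 21678 UMIs against 10479.5 in the gate, yet Arg1 stood at 2.27 CPM in them and at 88.5 (82.5 to 94.8) in the gate. At the carcinoma cell level, 20.5 of the 822 gate cells would hold an Arg1 UMI. In the lymphocyte gate, with a median of 6840 UMIs, 0 of 82 cells held one, and a count of 0 there allows 3.66%. The 664 kept cells outside these gates stood at 7.60 CPM (5.73 to 9.90), with 27 of their 55 Arg1 UMIs in 1 cell. At that level, 66.4 of the gate cells would hold an Arg1 UMI. The 24 cells past both the C1q and the carcinoma limit stood at 67.9 CPM (48.5 to 92.5). A member with 1 UMI cannot be told apart from a cell that holds 1 UMI of free RNA. With the gate divided into 4 groups of rising depth, 10.7%, 16.1%, 19.5% and 18.0% of cells held an Arg1 UMI. After the draw to 5000 UMIs the shares were 9.22%, 11.7%, 15.6% and 10.2%, and 96 of the 132 members kept an Arg1 UMI.

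No cell of this kind was detected in the low-burden lung. Its gate held 62 cells, 2.51% of kept cells against 27.1% at high burden, and 0 of 62 held an Arg1 UMI, which allows up to 4.84%. The median cell of that gate had 4075.5 UMIs and a C1q sum of 141 per 10000, against 10479.5 UMIs at high burden.

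Arg1-positive cells were spread unevenly over the C1q macrophages. The 822 cells were grouped into 8 clusters by their variable genes, with Arg1 and the genes of the gate left out. One cluster of 91 cells, led by Alox15, Serpinb2, Prg4, Selp and Saa3, held 56 members, so that 61.5% (50.8 to 71.6) of its cells were Arg1-positive. It made up 11.1% of the gate, 42.4% of the members and 39.1% of their Arg1 UMIs. The share in the other clusters ran from 4.93% (7 of 142) in the cluster led by Dnase1l3, Cxcl9 and Serpina3g to 16.8% (26 of 155) in that led by Fcrls, Folr2 and Pdpn. Clusters led by the cell division genes Cenpf and Ccne1 stood at 8.40% and 8.70%. The same 91 cells formed 1 cluster at a lower and at a higher resolution, and 90 of them did so after a second random draw of UMIs, whereas the outlines of the other clusters moved with the draw. No name is given to the cluster, and it is called the Alox15 cluster below.

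**Figure D1:**
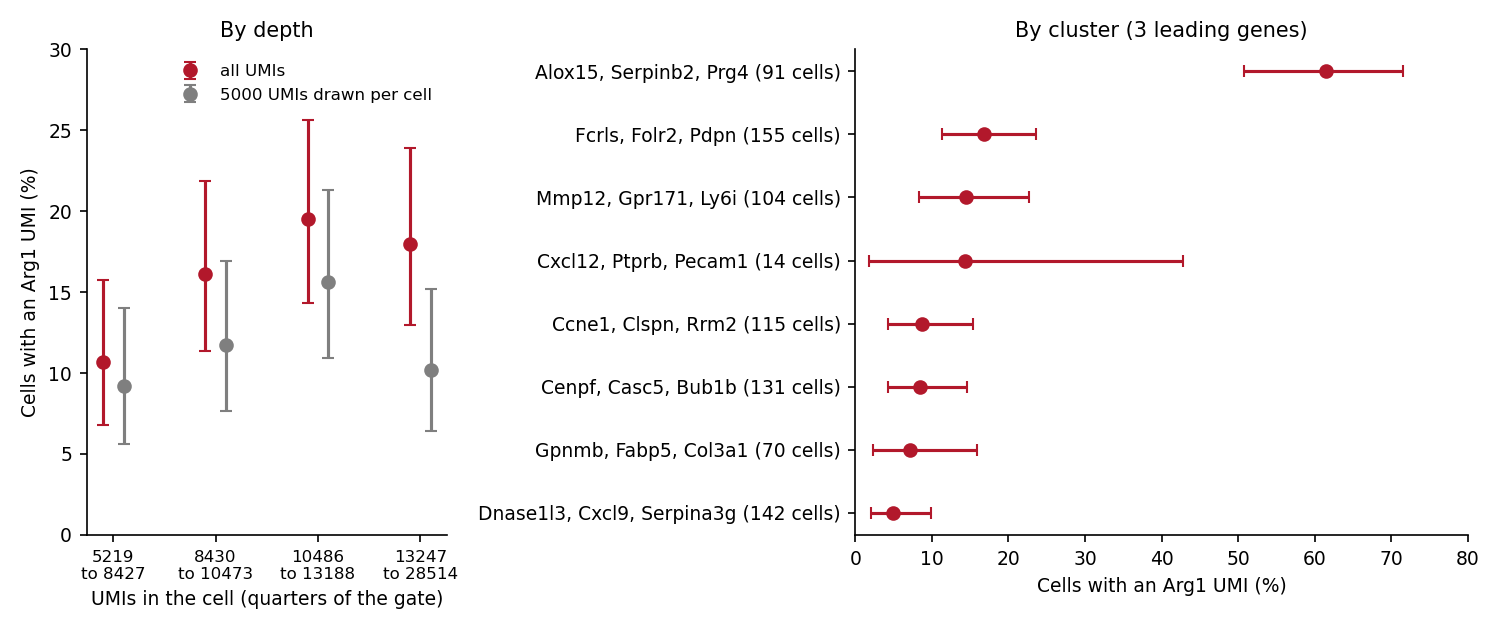
Percentage of C1q gate cells with an Arg1 UMI in the high-burden lung, by depth group (left, all UMIs in red and 5000 UMIs drawn per cell in gray) and by cluster (right, all UMIs), with exact 95% intervals as bars. The Alox15 cluster stands at 61.5%, and the upper bound of the cluster led by Fcrls is 23.6%.

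The Alox15 cluster had the highest Arg1 level of the 8 clusters, at 303 CPM over all its cells, followed by the cluster led by Mmp12 at 225 CPM. Among members alone, it held 19 of the 44 with the highest Arg1 level, against 42.4% of all members. The 5 members with the most Arg1 UMIs held 43, 30, 29, 28 and 27, and none of them lay in the Alox15 cluster. The 56 members inside the cluster held a median of 3.5 and at most 18 Arg1 UMIs, and the 76 members outside it a median of 3 and at most 43. The cluster led by Mmp12, Gpr171 and Ly6i held 15 members but 193 Arg1 UMIs, 23.8% of the total, and 3 of the 5 top cells.

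The genes that lead the cluster, given as a description because the cluster was drawn from them, were nearly absent from its outside members. Alox15 is a lipoxygenase, Prg4 the lubricin proteoglycan, Serpinb2 an inhibitor of plasminogen activators, Cd5l a protein secreted by macrophages, Timd4 a receptor for phosphatidylserine on dying cells, Selp P-selectin and Fcna a ficolin of the lectin complement pathway. Summed over these 7 genes, members inside the cluster held 3 to 68 of 5000 UMIs with a median of 26, and 52 of 56 had a UMI of at least 4 of the genes. Members outside it held 0 to 2 UMIs, and 61 of 76 held none. The 35 cluster cells without Arg1 held 4 to 33 UMIs, with a median of 21, and 29 of 35 had at least 4 genes. The 655 cells outside the cluster without Arg1 held 0 to 3.

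**Figure D2:**
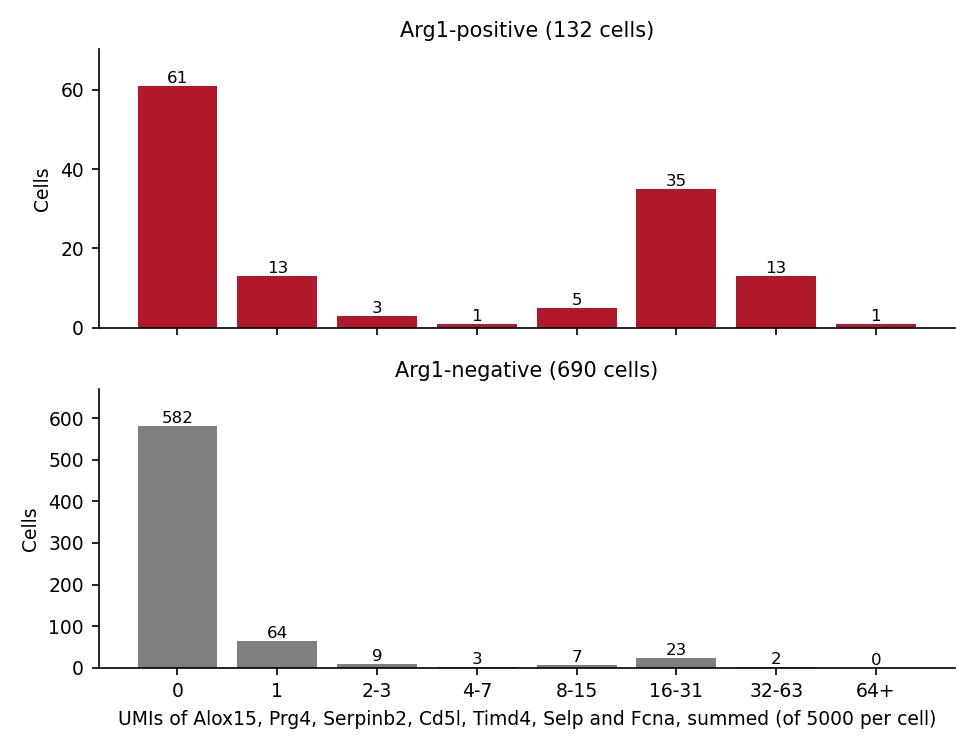
Number of Arg1-positive (top, red) and Arg1-negative (bottom, gray) gate cells by their summed UMIs of Alox15, Prg4, Serpinb2, Cd5l, Timd4, Selp and Fcna, of 5000 UMIs per cell. Both panels have a peak at 0 (61 and 582 cells) and another at 16 to 31 UMIs (35 and 23 cells), with few cells between.

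The low-burden gate also held 4 cells with UMIs of at least 4 of these 7 genes. Over the 4 cells, with 3902 to 16485 UMIs each, Saa3 gave 461 UMIs, Retnla 275, Fn1 103, Prg4 61, Slpi 53, Alox15 38, Icam2 33, Cd5l 18, Fcna 16, Timd4 11 and Gata6 1. Gata6 is a transcription factor known from macrophages of the body cavities, and in the high-burden draws it had 6 UMIs in the 56 cluster members, 3 in the 35 cluster cells without Arg1 and 0 in the 76 other members, with 4 in the 655 remaining cells. Cx3cr1 and Arg1 had 0 UMIs in the 4 cells. Cells with this gene pattern were thus present at week 1 without a detected Arg1 UMI, in a number too small to give a share.

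Over all members against all gate cells without Arg1, 5017 genes passed the filter of 50 UMIs over both sets and detection in 10% of the cells of either set. Of these, 469 (9.35%) were higher and 547 (10.9%) were lower in the members, with a median log2 ratio of −0.05 over all genes. The 12 highest ratios belonged to Selp, Alox15, Saa3, Cd5l, Serpinb2, Retnla, Prg4, Prtn3, Ccl24, Il6, Timd4 and Marco. Some of these genes, Alox15, Ccl24 and Il6 among them, passed the filter through the members alone, so that this ranking is a description. Only 1 of the 12, Saa3, also passed the filter among cells outside the Alox15 cluster. The other 11 did not pass it there, so that their ratios outside the cluster rest on few UMIs or few cells.

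Saa3, an acute-phase serum amyloid on chromosome 7 (chr7:46711998-46715700), showed this most clearly. It had 7084 UMIs in the 132 members and 2839 in the 690 other cells, a log2 ratio of 3.71 (3.64 to 3.77). Inside the cluster its level was 25179 CPM with and 14531 without Arg1. Outside the cluster it was 89.5 and 90.4, a log2 ratio of −0.01 (−0.57 to 0.50).

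Retnla (resistin-like alpha, also called Fizz1), which like Arg1 is used as a marker of alternative activation, had 1030 UMIs in the members and 556 in the other cells (log2 ratio 3.28, 3.13 to 3.43). It stood at 3650 and 2491 CPM inside the cluster. Outside it, members had 8 Retnla UMIs, or 21.1 CPM, and cells without Arg1 had 120, or 36.6. Nearly all Retnla UMIs of the members thus lay in the Alox15 cluster.

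Alox15 had 313 UMIs in the members and 119 in the other cells (3.78, 3.47 to 4.10). It stood at 1114 and 646 CPM inside the cluster, with 1 UMI in the 76 members and 6 UMIs in the 655 other cells outside it. Cd5l had 284 and 114 UMIs (3.70, 3.38 to 4.03), Prg4 352 and 199 (3.21, 2.95 to 3.47), and Marco, a scavenger receptor, 469 and 306 (3.00, 2.79 to 3.21). Each of these genes stood below 20 CPM in both sets outside the cluster.

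Ccl24 and Il6 followed another pattern. Ccl24, the chemokine eotaxin-2, had 130 UMIs in the members and 78 in the other cells (3.12, 2.71 to 3.55). Inside the cluster its level was alike, at 364 with and 394 without Arg1, but outside it members stood at 73.7 CPM (28 UMIs) and other cells at 2.75 (9 UMIs). The cytokine Il6 stood at 36.8 (14 UMIs) and 4.27 (14 UMIs) outside the cluster. Both were below the filter in that comparison, and their outside ratios, 4.74 (3.62 to 6.01) for Ccl24 and 3.11 (1.93 to 4.29) for Il6, rest on these few UMIs.

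Fn1, Ccl6 and Hmox1 were higher in members both over the whole gate and outside the cluster. Fibronectin (Fn1), a matrix protein of wound repair, had 1465 UMIs in the members and 1817 in the other cells (2.08, 1.98 to 2.18). Its level was 3875 and 3771 CPM inside the cluster, and 1000 and 353 outside it, with a log2 interval of 1.33 to 1.67. The chemokine Ccl6 stood at 5054 and 5194 CPM inside and at 1166 and 453 outside (1.36, 1.21 to 1.52). Inside the cluster, the log2 intervals of Fn1 (−0.10 to 0.18) and Ccl6 (−0.16 to 0.08) spanned 0.

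**Figure D3:**
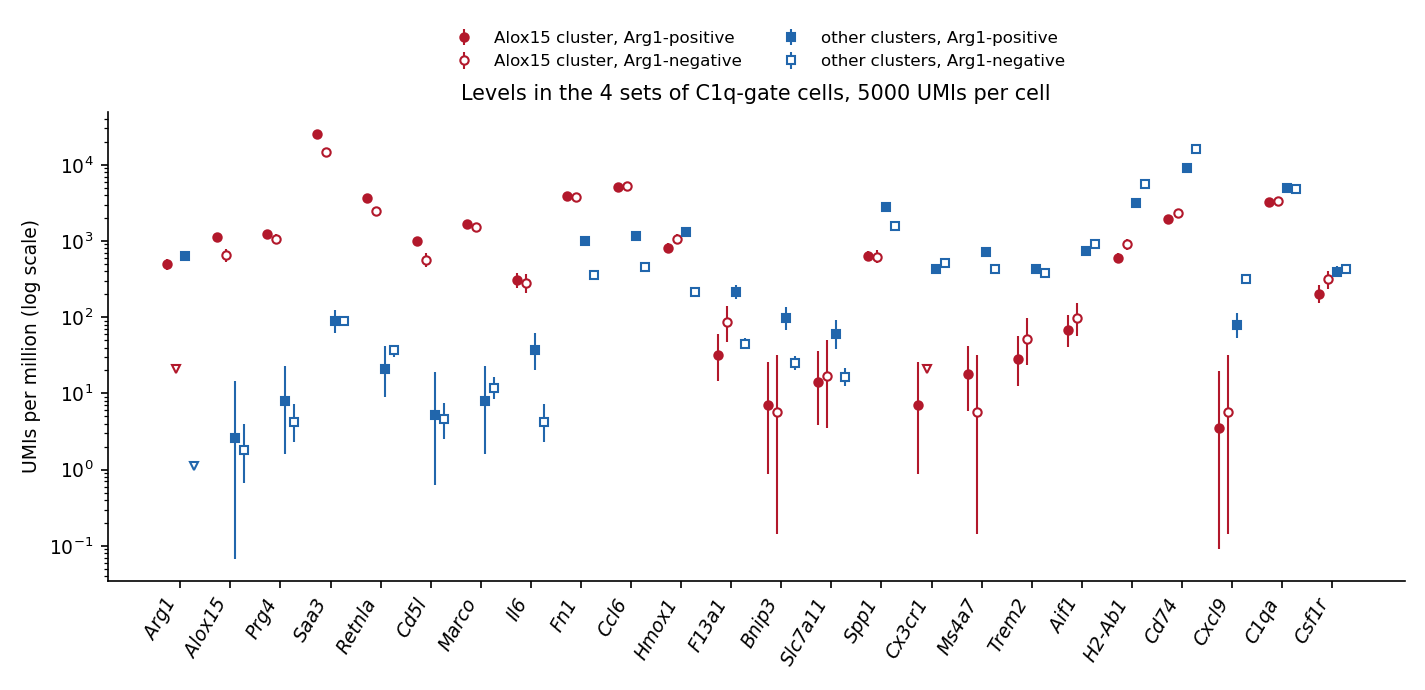
Level of 24 genes (CPM at 5000 UMIs per cell, log axis) in cells of the Alox15 cluster (red circles) and of other clusters (blue squares), Arg1-positive filled and Arg1-negative open, with exact Poisson 95% intervals as bars. Open triangles mark the limit that a count of 0 allows. Hmox1 is high in 3 of the 4 sets and stands at 213 in Arg1-negative cells of other clusters.

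Because 11 of the 12 highest ratios belonged to genes that did not pass the filter outside the cluster, the comparison was repeated among the 76 members and 655 other cells outside it. Of 5073 genes past the filter, 469 (9.25%) were higher and 480 (9.46%) lower in the members, with a median of 0.01. Hmox1 (heme oxygenase 1, which breaks down heme, chr8:75093621-75100589) had the highest ratio, with 502 UMIs in 76 members and 697 in 655 other cells (2.63, 2.47 to 2.80), or 1321 and 213 CPM. Inside the cluster it stood at 818 with and 1069 without Arg1.

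The sets outside the cluster also differed in make-up. The cluster led by Fcrls and Folr2 held 26 of the 76 members (34.2%) and 129 of the 655 other cells (19.7%), and the cluster led by Dnase1l3 and Cxcl9 held 7 (9.21%) and 135 (20.6%). The comparison was therefore also made with the other cells weighted to the clusters of the members, an alternative chosen after seeing the data. Of 5073 genes, 465 were then higher and 478 lower. The Hmox1 ratio was 2.46, that of F13a1 1.96 and that of Fn1 1.24. Within the Fcrls cluster Hmox1 stood at 2454 CPM with and 411 without Arg1, but within the Mmp12 cluster at 26.7 and 76.4 and within the Dnase1l3 cluster at 85.7 and 97.8. In these last clusters the members, 15 and 7 cells, held 2 and 3 Hmox1 UMIs.

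The other genes named from this comparison were chosen after their values were seen, as the 12 highest. They include F13a1, the A chain of coagulation factor XIII, with 82 and 147 UMIs (2.27, 1.86 to 2.66), and Slc7a11, the cystine transporter, with 23 and 54 (1.88, 1.10 to 2.60). They also include Pilrb2 (2.43, 1.55 to 3.28), Clec4d (1.72, 1.04 to 2.37), Fam20c (1.79, 1.00 to 2.52) and Htra3 (1.75, 1.05 to 2.41). Some of them, Slc7a11, Pilrb2 and Fam20c among them, passed the filter through the members alone, so that their high ratios are a description.

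Heme and oxidative stress genes were higher in part. Of 17 genes of the iron and oxidative stress list past the filter, 7 were higher and 0 lower in the members outside the cluster, with a list median of 0.44, against 9.25% higher and a median of 0.01 over all genes. With the weighting, the counts were 7 and 0 and the median 0.43. Some of these genes, Srxn1 and Slc7a11 among them, were detected in under 10% of the other cells and passed the filter through the members alone, so that the count is a description. Srxn1, which restores oxidized peroxiredoxins, had 20 and 50 UMIs (1.79, 0.96 to 2.56). Gclm, a subunit of the enzyme that starts glutathione synthesis, had 41 and 146 (1.28, 0.74 to 1.78). The peroxiredoxin Prdx1 stood at 2158 and 1232 CPM (0.81, 0.70 to 0.92), and the ferritin chains Fth1 (0.40, 0.36 to 0.43) and Ftl1 (0.43, 0.40 to 0.47) differed by less than 1.5-fold. Bach1, a repressor of Hmox1 that is not on this list, was chosen after its value was seen. It had 1 UMI in the 76 members and 79 in the other cells (−3.20, −8.52 to −0.68), a ratio that rests on a single UMI. Bach1 passed the filter through the other cells alone, and a link to Hmox1 was not tested.

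Some genes induced by low oxygen and fewer genes of glycolysis were higher outside the cluster. In the hypoxia response list, 4 of 8 genes were higher and 0 lower over the whole gate, and 8 of 12 and 0 outside the cluster, with a median of 0.78. The background was 9.25%. Some of these genes, Ankrd37, Slc2a1, Ero1l and Mxi1 among them, passed the filter through the members alone, so that this count too is a description. With the weighting, 7 of 12 were higher, with a median of 0.69. Bnip3, a mitochondrial protein of mitophagy, had 37 and 83 UMIs (1.94, 1.34 to 2.52), or 97.4 and 25.3 CPM. Ankrd37 (1.37, 0.30 to 2.33), Ero1l (1.31, 0.44 to 2.11), Mxi1 (1.22) and Hilpda (0.88, 0.30 to 1.42) were also higher, as was P4ha1, which modifies collagen, with 36 and 158 UMIs. In the glycolysis list, 5 of 16 genes were higher and 0 lower, with a median of 0.51, and 4 of 16 with the weighting. Some genes of this list, Hk1 and Slc2a1 among them, also passed the filter through the members alone, so that its count is a description. The higher genes included the lactate exporter Slc16a3 (1.24, 0.71 to 1.74), Pfkl (1.22, 0.55 to 1.84) and Pgam1 (0.78, 0.54 to 1.01). Lactate dehydrogenase Ldha stood at 926 and 645 CPM (0.52, 0.36 to 0.69). Inside the cluster Bnip3 had 2 UMIs with and 1 without Arg1, so that its difference could not be measured there.

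The 250 bases before the RefSeq start (GRCm38.p6) are shown for Bnip3 and Gclm, as genes of the hypoxia and oxidative stress lists that were higher outside the cluster, and for Saa3 and Retnla, as genes with high ratios over the whole gate. ACGTG, the core of the element bound by hypoxia-inducible factors, was searched on both strands and found before 7 of 10 hypoxia response genes with a RefSeq entry, among them Bnip3, P4ha1, Hilpda, Ankrd37 and Slc2a1. It was found before 9 of 16 glycolysis genes, before 26.5% of the 3924 entries of genes past the filter, and before 18.5% of 27025 entries in all. TGACNNNGC, the antioxidant response element, was found before 6 of 14 iron and oxidative stress genes, 15.0% of genes past the filter and 11.5% of all entries. TTGCNNAA, a pattern bound by C/EBP factors, was found before 4 of 9 of the 12 highest genes (Il6, Retnla, Saa3 and Serpinb2), 9.89% of genes past the filter and 10.8% of all entries. The 3 motifs were counted separately. Capitals mark the matches of the motif named for each sequence, which describe the sequence and do not show binding. The Gclm sequence also holds ACGTG, on the other strand, which is left in lower case.

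Bnip3 (chr7:138909507-138909756, minus strand, ACGTG on both strands, overlapping, 108 to 103 bases before the start): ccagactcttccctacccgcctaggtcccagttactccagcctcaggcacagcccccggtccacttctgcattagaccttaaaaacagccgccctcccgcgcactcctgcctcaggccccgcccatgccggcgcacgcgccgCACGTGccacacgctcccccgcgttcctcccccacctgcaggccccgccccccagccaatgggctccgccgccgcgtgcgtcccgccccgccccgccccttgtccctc
Gclm (chr3:122245307-122245556, plus strand, TGACNNNGC on the other strand, 134 to 126 bases before the start): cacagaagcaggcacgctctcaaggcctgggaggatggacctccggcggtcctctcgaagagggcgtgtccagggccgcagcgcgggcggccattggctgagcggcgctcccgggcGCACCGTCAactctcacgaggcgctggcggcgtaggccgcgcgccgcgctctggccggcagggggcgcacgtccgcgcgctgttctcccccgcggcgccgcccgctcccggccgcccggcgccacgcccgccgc
Saa3 (chr7:46715677-46715926, minus strand, TTGCNNAA on the other strand, 99 to 92 bases before the start): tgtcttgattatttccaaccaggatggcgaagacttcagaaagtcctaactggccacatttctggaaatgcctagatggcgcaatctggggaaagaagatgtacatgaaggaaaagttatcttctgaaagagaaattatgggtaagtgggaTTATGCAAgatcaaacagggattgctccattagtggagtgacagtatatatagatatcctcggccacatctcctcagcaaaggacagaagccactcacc
Retnla (chr16:48842359-48842608, plus strand, TTGCNNAA, 134 to 127 bases before the start): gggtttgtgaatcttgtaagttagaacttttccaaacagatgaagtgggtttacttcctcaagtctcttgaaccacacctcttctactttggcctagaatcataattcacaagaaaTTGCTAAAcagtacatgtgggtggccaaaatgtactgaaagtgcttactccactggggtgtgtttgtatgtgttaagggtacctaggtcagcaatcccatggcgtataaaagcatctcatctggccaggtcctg

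Cebpb, which encodes a C/EBP factor, stood at 1650 and 1857 CPM inside the cluster and at 879 and 586 outside it (0.58, 0.41 to 0.75).

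Part of the wound repair and matrix genes were higher in the members. Over the whole gate, 11 of 18 genes of this list were higher and 2 lower, with a median of 0.80, against 9.35% and 10.9% over all genes. Outside the cluster the counts were 7 of 16 and 0, with a median of 0.55, against 9.25% and 9.46% over all genes. Inside it they were 0 of 10 and 1, with a median of −0.19, against 4.36% and 3.64%. Beside Fn1 and F13a1, the metalloproteinase Adam8 had 46 and 134 UMIs outside the cluster (1.56, 1.05 to 2.06) and Ecm1 had 74 and 390 (0.71, 0.33 to 1.07). Osteopontin (Spp1) stood at 2789 and 1585 CPM there (0.82, 0.72 to 0.91), but at 643 and 623 in the cluster. Thbs1 (1.39, 0.89 to 1.87) was higher over the whole gate. The 2 lower genes were Mmp14 (−0.90, −1.52 to −0.34) and Pdgfa (−0.63, −1.47 to 0.13).

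Most antigen presentation genes were lower in the members. Of 11 genes of the MHC class II list past the filter, 9 were lower and 0 higher over the whole gate, with a median of −0.99. The shares over all genes were 10.9% and 9.35%. The beta chain H2-Ab1 had 1360 UMIs in the members and 18722 in the other cells, or 2061 and 5427 CPM (−1.40, −1.48 to −1.32). The invariant chain Cd74 stood at 6030 and 15590 (−1.37, −1.42 to −1.32) and H2-Aa at 2226 and 5803 (−1.38, −1.46 to −1.31). Outside the cluster 6 of 11 were lower, with a median of −0.66, against 9.46% over all genes. Cd74 stood at 9029 and 16300 there (−0.85, −0.90 to −0.80). With the weighting to the members' clusters, 3 of 11 were lower, with a median of −0.50, and the ratios were −0.60 for Cd74 and −0.56, under 1.5-fold, for H2-Ab1. H2-Ab1 stood at 1369 CPM with and 1236 without Arg1 in the Fcrls cluster, and at 8914 and 11698 in the Dnase1l3 cluster. Cd74 levels in the Alox15 cluster were lower still, at 1961 with and 2314 without Arg1.

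**Figure D4:**
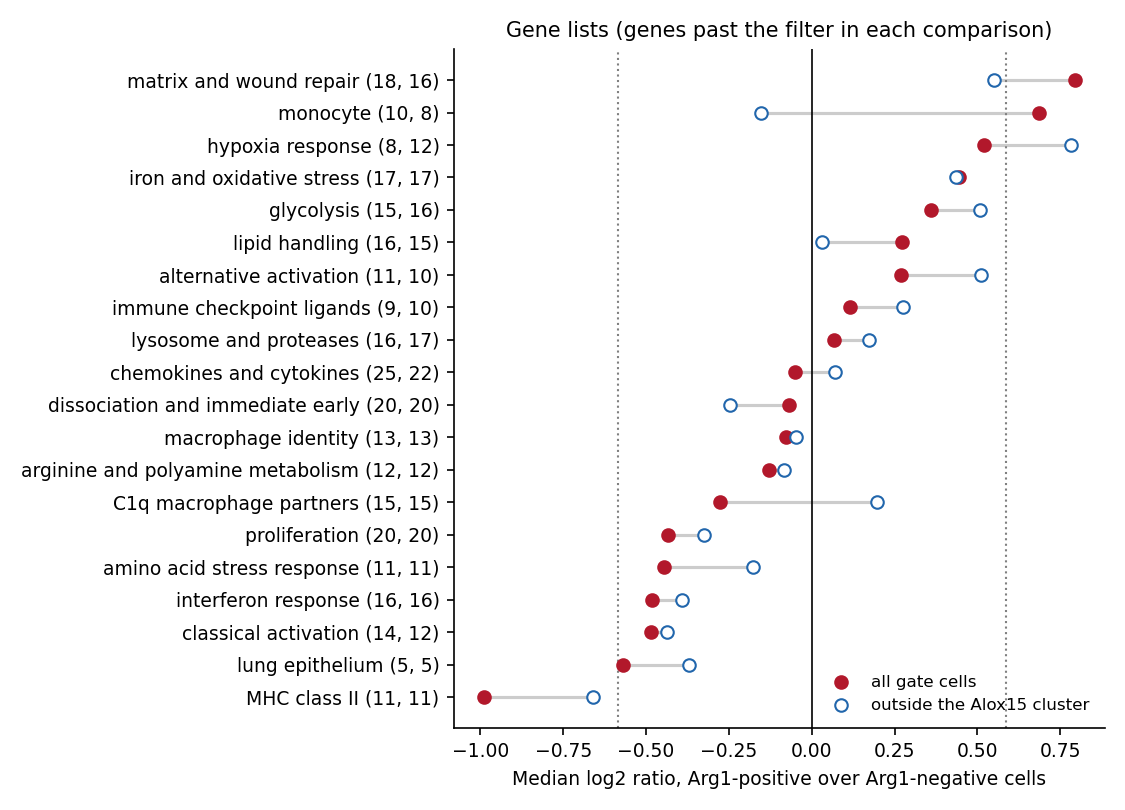
Median log2 ratio of Arg1-positive over Arg1-negative gate cells for 20 gene lists, over all gate cells (red) and outside the Alox15 cluster (open blue), with the number of genes past the filter in each comparison in parentheses and 1.5-fold as dotted lines. MHC class II stands lowest at −0.99 and −0.66, and the monocyte list changes sign, from 0.68 to −0.15.

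Genes of the interferon response were lower to a smaller extent. Of 16 genes, 8 were lower and 1 higher over the whole gate (median −0.48), against 10.9% and 9.35% over all genes. Outside the cluster 6 were lower and 0 higher (median −0.39), against 9.46% and 9.25%. With the weighting, 2 were lower and 1 higher outside the cluster (median −0.27). Cxcl9, a chemokine induced by interferon gamma, had 31 UMIs in the members and 1033 in the other cells (−2.67, −3.24 to −2.16), and 30 and 1032 outside the cluster (−2.00, −2.57 to −1.47). With the weighting this ratio was −1.48, and 591 of the 1032 UMIs lay in the Dnase1l3 cluster, which Cxcl9 helps to define. Irf7 (−1.57, −2.47 to −0.80) and Iigp1 (−1.09, −1.63 to −0.60) were lower as well, although Irf7 came as near to 0 as −0.54 under the alternatives, and Cxcl10 stood at 130 and 260 CPM. The higher gene was Ifitm3 (0.80, 0.71 to 0.88).

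The lowest ratios included those of Zmynd15, Dnase1l3, Klrb1b, Cxcl9, Ralgds, Rogdi, Slamf8, Lpl, Aurka, Arid5b and Ramp1. Apart from Cxcl9 they rest on 3 to 10 UMIs in the members. Those genes passed the filter through the cells without Arg1 alone, so that their low ratios are a description. Dnase1l3, a secreted DNase, had 3 UMIs in the members and 140 in the other cells (−3.16, −5.45 to −1.58), and Klrb1b, a C-type lectin receptor, 3 and 136 (−3.12, −5.41 to −1.54). Lipoprotein lipase (Lpl) had 10 and 242 (−2.21, −3.29 to −1.31). Among cells outside the cluster, which are a part of these same cells, the 11 genes were also lower. Ramp1 had 5 UMIs in the members, and without the member cell that held the most of them its ratio moved from −2.02 to −2.75. Arid5b came as near to 0 as −0.43 under the alternatives.

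No other gene of arginine use past the filter was called higher in the members. Of 12 genes of the arginine and polyamine list past it, 0 were higher and 2 lower over the whole gate (median −0.13). The shares over all genes were 9.35% and 10.9%. Outside the cluster 0 were past 1.5-fold (median −0.09), against 9.25% higher and 9.46% lower over all genes. Ornithine decarboxylase (Odc1), the next step toward polyamines, stood at 69.7 and 67.2 CPM (0.05, −0.44 to 0.51). The lower genes were those that rebuild arginine, Ass1 with 23 and 207 UMIs (−0.78, −1.47 to −0.16) and Asl with 13 and 114 (−0.75, −1.70 to 0.08). Under the alternatives that kept the Alox15 cluster, Ass1 came as near to 0 as −0.55 and Asl as −0.24, both under 1.5-fold. Outside the cluster the ratios were −0.17 (−0.90 to 0.48) for Ass1 and −0.40 (−1.50 to 0.53) for Asl. With the weighting they were 0.04 and −0.42. The mitochondrial arginase Arg2 had 1 UMI in the members and 13 in the other cells, and the inducible nitric oxide synthase Nos2 had 2 and 3, too few for a ratio to be read.

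Over the whole gate, the alternative and classical activation lists were both mixed. In the former, Retnla, Ccl24 and Fn1 were higher and Mgl2, a lectin with 22 and 281 UMIs (−1.29, −1.99 to −0.66), was lower, with a median of 0.27 over 11 genes. The mannose receptor Mrc1 stood at 123 and 117 CPM (0.07, −0.29 to 0.42). Outside the cluster, 4 of 10 genes of this list were higher and 0 lower, with a median of 0.51, against 9.25% and 9.46% over all genes. With the weighting the counts were 4 and 0 and the median 0.39. The outside ratios were 0.53 (0.13 to 0.91) for Mrc1 and −0.56 (−1.26 to 0.06) for Mgl2, both under 1.5-fold. In the classical list, 4 of 14 genes were higher, among them Il6 and Il1a (0.99, 0.48 to 1.48), and 6 were lower, among them Tnf, with 32 and 412 UMIs (−1.30, −1.87 to −0.78), and Socs3 (−0.87, −1.19 to −0.57). The list median was −0.48. Over all genes, 9.35% were higher and 10.9% lower. Ccl24 and Il6 passed the filter through the members alone, so that the counts of both lists over the whole gate are a description. Outside the cluster, 3 of 12 classical activation genes were higher and 5 lower, with a median of −0.44, against 9.25% and 9.46% over all genes.

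Over the whole gate, chemokines split both ways too, with 8 of 25 genes of the chemokine and cytokine list higher and 9 lower (median −0.05). The shares over all genes were 9.35% and 10.9%. Outside the cluster 7 of 22 were higher and 5 lower (median 0.07), against 9.25% and 9.46% over all genes. Ccl9 stood at 900 and 357 CPM (1.33, 1.19 to 1.48) and Pf4 at 1673 and 718 (1.22, 1.12 to 1.32). Ccl12, a ligand of Ccr2, stood at 509 and 1410 (−1.47, −1.63 to −1.31), and at 863 and 1484 outside the cluster (−0.78, −0.95 to −0.62). Ccl4 stood at 398 and 790 (−0.99, −1.18 to −0.80). Outside the cluster the ratio of Ccl9 was 0.99 (0.78 to 1.19). Those of Pf4 (0.31, 0.13 to 0.48) and Ccl4 (−0.49, −0.69 to −0.29) were under 1.5-fold there. With the weighting the ratios were 0.70 for Ccl9, 0.09 for Pf4, −0.59 for Ccl4 and −0.90 for Ccl12.

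Within the Alox15 cluster, 56 cells with and 35 without Arg1 were compared over 1125 genes, of which 49 (4.36%) were higher and 41 (3.64%) lower in the members. The cells without Arg1 were shallower, with a median of 8427 UMIs against 11182.5 before the draw. Saa3 (0.79, 0.73 to 0.86), Alox15 (0.79, 0.47 to 1.11) and Cd5l (0.83, 0.50 to 1.18) were higher, while Prg4 (0.24, −0.02 to 0.50), Marco (0.13, −0.09 to 0.35) and Fcna (−0.07, −0.35 to 0.21) differed by less than 1.5-fold. Hmox1 did not share the direction seen outside the cluster, at −0.39 (−0.67 to −0.10). Of the genes chosen after their values were seen, Ccl4 (−1.30, −1.89 to −0.72) and Serping1 (−1.64, −2.46 to −0.87) were lower and Dusp3 (1.51, 0.45 to 2.74) was higher.

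Among the members themselves, 213 of 1647 genes (12.9%) were higher and 324 (19.7%) lower in the 56 cluster cells than in the 76 others, with a median of −0.10. Since the cluster was drawn from these genes, the values describe it and do not test it. Cx3cr1, the fractalkine receptor, had 2 UMIs in the 56 cells and 164 in the 76 (−5.92, −8.97 to −4.04), and Ccr2, the receptor that recruits monocytes, 1 and 56. Ms4a7 had 5 and 273 (−5.33, −6.96 to −4.09), Trem2, a lipid receptor, 8 and 165 (−3.93, −5.16 to −2.91), and Aif1 19 and 283 (−3.46, −4.21 to −2.79). H2-Ab1 stood at 600 and 3137 CPM. Adgre1, which encodes the antigen F4/80, went the other way, at 318 and 84.2 (1.92, 1.32 to 2.55). The C1q genes themselves were lower in the cluster, C1qa at 3221 and 4984, C1qb at 2232 and 3505, and C1qc at 2136 and 3639.

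Genes that mark C1q macrophages in other tissues went both ways. Over the whole gate, 2 of 15 genes of the C1q macrophage partner list were higher and 3 lower in the members (median −0.28). The shares over all genes were 9.35% and 10.9%. Outside the cluster 2 were higher and 1 lower (median 0.20), against 9.25% and 9.46% over all genes. Folr2, a folate receptor, had 34 and 116 UMIs outside the cluster (1.34, 0.74 to 1.90), and Ms4a7 273 and 1421 (0.73, 0.54 to 0.92). Cd72 was lower, with 25 and 499 (−1.21, −1.85 to −0.63), while Trem2 (0.20, −0.05 to 0.43) and Apoe (0.22, 0.17 to 0.28) were within 1.5-fold.

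Members were also divided into 3 groups by their Arg1 level, separately inside and outside the cluster. This uses the rule's own measure and is a description. Outside the cluster, Bnip3 had 4, 8 and 25 UMIs from the lowest to the highest group of 26, 25 and 25 cells, and Fn1 had 75, 129 and 176. Hmox1 had 107, 315 and 80 UMIs there and was highest in the middle group. Bnip3 and Fn1 were thus highest where Arg1 was highest, and Hmox1 was not. Inside the cluster the order of Fn1 was the opposite, at 403, 373 and 309 UMIs in 19, 19 and 18 cells. Saa3 stood at 24190, 22990 and 28533 CPM and Alox15 at 916, 1232 and 1200 CPM in these groups.

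Transcripts of other cell types were measured beside these results. The neutrophil list summed to 705 CPM in the members and 273 in the other cells. Of its 10 genes, 8 were detected in the members, with Ly6g and Ngp at 0. Ly6g was at 0 in the other cells too. All 4 genes of the list past the filter were higher over the whole gate (median 1.07), against 9.35% over all genes. Outside the cluster all 3 past it were higher (median 1.40), against 9.25%. S100a8 had 235 and 402 UMIs (1.61, 1.37 to 1.85) and S100a9 157 and 359 (1.19, 0.91 to 1.47). Without the member cell that held the most UMIs of each, 36.6% and 36.9% of the members' total, their ratios were 0.97 and 0.54. The alveolar macrophage list summed to 845 and 247 CPM. It stood at 1796 in cluster members and at 145 in other members, with Siglecf, Pparg, Krt79, Itgax, Fabp1 and Atp6v0d2 at 0 in cluster members. Marco alone carried most of the sum in the members, and the list median over the whole gate was −0.09 over 4 genes. The monocyte list summed to 965 and 773 CPM, and its median ratio of 0.68 over 10 genes was −0.15 over 8 genes outside the cluster. Lymphocyte genes stood at 66.7 and 62.3, lung epithelium at 2408 and 2766, endothelium and stroma at 239 and 286, dendritic cell genes at 121 and 284, and carcinoma genes outside the gate at 400 and 478. Among the dendritic genes Flt3, Xcr1, Clec9a and 3 others were at 0 in the members. The part of these transcripts in the ratios was not tested.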

How the data were processed

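The authors deposited, for each lung, a matrix of UMI counts per gene and cell, with 27999 genes. The submitters' processing notes name Cell Ranger 2.0.2, mm10 and Seurat. Cells were kept and gated as described above, with every count taken from the deposited matrices. For comparisons, 5000 UMIs were drawn from each cell without replacement and summed over cells. Genes needed 50 UMIs over both sets and detection in 10% of the cells of either. Ratios had exact binomial intervals, levels exact Poisson intervals and shares Clopper-Pearson intervals, and no p-value was computed because each burden is 1 mouse and 1 library.

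Gate cells were clustered with scanpy 1.11.5 and leidenalg 0.10.2 (2000 variable genes without Arg1 and the gate genes, 10 components, 15 neighbors, resolution 0.5). No doublets were removed, and an alternative left out the deepest cells. Named genes were the 12 highest and 12 lowest ratios, up to 4 per list, and further genes said to be chosen after their values were seen; some of these genes are not reported here. The members and the 26 lists (453 of 461 entries in the files) were chosen with earlier results of these data known. The ratio script was tested on simulated data. Python 3.11.15, numpy 2.4.6, scipy 1.17.1 and pandas 2.3.3 were used.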

Additional observations from a re-analysis of the deposited data

Results flagged for a closer look

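Arg1 UMIs were present in cells that enter none of the gene ratios above. In the low-burden lung 12 kept cells, all outside the C1q gate, held 16 Arg1 UMIs, with 1 UMI in 10 of them and at most 4 in a cell, at a median depth of 4102 UMIs. Of these 12 cells, 8 held UMIs of Ltb, 7 of Ccr2, 4 of Il7r and 4 of Gata3, and none held Saa3 or Csf1r. In the high-burden lung, 15 of 664 cells outside the C1q, carcinoma and lymphocyte gates (2.26%, 1.27 to 3.70) held 55 Arg1 UMIs, of which 27 lay in 1 cell. Of these 15 cells, 15 held Lyz2, 12 held S100a8, 11 held Saa3 and 7 held Ccr2. These values were not compared between the lungs.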

How the results depend on the processing

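No paired analysis was possible because each burden is 1 mouse and 1 library. The Arg1-positive share was 11.8% with at least 2 Arg1 UMIs required, 11.7% with Arg1 called after the draw to 5000 UMIs and 10.4% without the Alox15 cluster, against 16.1%. Without a filter beyond 1 UMI, 5002 genes were higher and 2066 lower of 14663, and with a filter of 200 UMIs 132 were higher and 192 lower of 2466. Under the other alternatives 344 to 610 genes were higher and 380 to 751 lower. The monocyte list median was −0.15 at 8000 UMIs per cell, −0.17 without a draw and −0.15 without the Alox15 cluster, against 0.68. The Phgdh ratio was 0.12 at 3000 UMIs per cell and 0.15 with cells matched on total UMIs, against −0.99. The causes were not tested. Apart from these, 353 list medians under the alternatives lay within 1.5-fold of the value reported and 4 did not, and 1634 gene ratios lay within their counting interval and 119 did not. Leaving out cells with 2 or more lymphocyte, epithelium, endothelium or stroma UMIs per 10000 left 0 cells, so a limit of 5 for lymphocyte and stroma genes was added (754 cells, 127 members). It, the second draw, the other clustering resolutions, the weighting to the members' clusters and the comparison without the Alox15 cluster were chosen after seeing the data. With the weighting, 262 gene ratios outside that cluster lay within their counting interval, 18 did not and 0 of the called ratios changed sign. A second draw shared 11 of the 12 highest and 5 of the 12 lowest genes, so the order of the lowest genes is limited by their few UMIs.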

Other observations

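Of 20 proliferation genes, 6 were lower and 0 higher over the whole gate (median −0.43, against 10.9% lower over all genes). Outside the Alox15 cluster the counts were also 6 and 0 (median −0.32, against 9.46% lower). With the other cells weighted to the members' clusters, 4 were lower there (median −0.17). Ccnb2 (−1.08 over the whole gate) came as near to 0 as −0.11 under the alternatives, and Stmn1 (−0.93) as −0.30, both under 1.5-fold. In the lysosome list, 3 of 16 genes were higher and 1 lower over the whole gate (median 0.07, against 9.35% and 10.9% over all genes) and 2 of 17 and 0 outside the cluster (median 0.17, against 9.25% and 9.46%). Among its genes, the protease cathepsin L (Ctsl) had 71 UMIs in the 76 members and 375 in the 655 other cells outside the cluster (0.71, 0.32 to 1.08), and 0.79 with the weighting.

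Lipid genes moved apart from each other outside the cluster, with 4 of 15 higher and 2 lower (median 0.03), against 9.25% and 9.46% over all genes. The scavenger receptor Msr1 had 159 and 773 UMIs there (0.83, 0.57 to 1.07), while the phospholipid transfer protein Pltp had 28 and 440 (−0.87, −1.47 to −0.32). With the weighting these ratios were 0.71 and −0.86. Of 20 genes of the dissociation and immediate early list, 1 was higher over the whole gate (Ier3, 0.92, 0.76 to 1.07). There 3 were lower, among them the heat shock gene Hspa1a (−0.80, −1.11 to −0.51). The median of this list was −0.07, and the shares over all genes were 9.35% higher and 10.9% lower.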
